A study of Mus musculus with 4 samples.

Results

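Broad domains of trimethylated lysine 4 of histone H3 (H3K4me3) were described in MLg cells, a mouse lung fibroblast line, from H3K4me3 HiChIP-seq, in which DNA ends joined in the nucleus after MboI digestion are precipitated with an antibody and sequenced as pairs. The ends of all pairs were pooled over 4 libraries in 1-kb bins of the 19 autosomes. A bin was called enriched with a Poisson q value of at most 0.01 and at least 4-fold more ends than the larger of the chromosome's mean and the mean of the surrounding 100 kb, and enriched bins with a gap of at most 1 kb were joined. Of 8016 enriched regions, 96 spanned 4 kb or more and are called broad domains here, and 5248 spanned 1 kb. The domains were thus chosen by their number of ends in these libraries, and the values of coverage given for them are a description.

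All cells received 60 nM of an antagomiR probe, either a negative control or one against miR-9-5p (miR-9 loss-of-function, miR-9-LOF), and were harvested 24 h later. The Control library had the negative control probe alone, and the TGFB1 library had it with 5 ng/ml TGFB1 for the last 4 h. The miR-9-LOF library had the miR-9 probe, and the TGFB1+miR-9-LOF library had that probe and the same TGFB1. Each condition was 1 library of 1 cell line, so no difference between conditions could be set against a spread between replicates, and all intervals cover counting error only. Intervals on counts of ends treat each end as independent. A pair with 2 ends in the regions counted adds both, so these intervals are somewhat too narrow. The libraries held 10864558 to 15568047 pairs, and the share of autosomal ends within the 8016 regions was 9.86% in Control, 7.10% in TGFB1, 4.85% in miR-9-LOF and 4.15% in TGFB1+miR-9-LOF. Of 10 fibroblast markers, 6 had a coding transcription start site (TSS) within 2 kb of an enriched region (Pdgfra, Pdgfrb, Vim, Twist1, Prrx1 and Col1a1), and Col1a2, Col3a1, Fn1 and Thy1 had none. Of 10 epithelial, 10 endothelial and 10 blood cell markers, 0 had one.

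H3K4me3 is laid down by the SET1 and MLL methyltransferase complexes and marks the nucleosomes at and just downstream of active TSSs, mostly at CpG islands. At most promoters the mark spans a few nucleosomes. A minority of promoters carries it over several kilobases, and such broad domains are known at genes of cell identity.

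The sequence just upstream of the TSS is shown for 6 genes at broad domains, because these promoters differ in CpG content. Pcdh7 lay at the longest domain with a coding gene, Dusp6 and Slit2 at domains among the 15 longest, Pdgfra encodes the growth factor receptor that marks fibroblasts, and Smad3 and Smad6 encode a transducer and an inhibitor of TGFB family signalling. Each is the RefSeq sequence of the 250 bases before the TSS in GRCm38 (mm10), written 5′ to 3′ on the strand of the gene, with CpG in capitals. They lie at chr5:57717831-57718080, chr10:99262981-99263230, chr5:47982905-47983154 and chr5:75152001-75152250 on the plus strand and at chr9:63757995-63758244 and chr9:64022060-64022309 on the minus strand. The RefSeq starts of Pdgfra and Smad6 lay just outside their domains, and those of the other 4 within them.
Pcdh7: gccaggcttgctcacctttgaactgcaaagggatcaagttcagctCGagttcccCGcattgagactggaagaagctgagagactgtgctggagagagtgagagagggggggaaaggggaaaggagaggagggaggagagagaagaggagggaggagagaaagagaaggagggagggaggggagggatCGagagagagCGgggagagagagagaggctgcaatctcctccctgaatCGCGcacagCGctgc
Dusp6: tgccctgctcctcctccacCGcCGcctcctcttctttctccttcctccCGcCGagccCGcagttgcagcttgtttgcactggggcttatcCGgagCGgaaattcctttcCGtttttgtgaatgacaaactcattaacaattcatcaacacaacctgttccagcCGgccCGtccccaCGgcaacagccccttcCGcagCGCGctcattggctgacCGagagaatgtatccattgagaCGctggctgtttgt
Slit2: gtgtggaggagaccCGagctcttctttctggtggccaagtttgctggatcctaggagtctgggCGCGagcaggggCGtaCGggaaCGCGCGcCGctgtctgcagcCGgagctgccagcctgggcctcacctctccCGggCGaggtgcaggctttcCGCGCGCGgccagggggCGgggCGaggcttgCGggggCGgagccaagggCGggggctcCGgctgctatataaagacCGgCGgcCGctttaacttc
Pdgfra: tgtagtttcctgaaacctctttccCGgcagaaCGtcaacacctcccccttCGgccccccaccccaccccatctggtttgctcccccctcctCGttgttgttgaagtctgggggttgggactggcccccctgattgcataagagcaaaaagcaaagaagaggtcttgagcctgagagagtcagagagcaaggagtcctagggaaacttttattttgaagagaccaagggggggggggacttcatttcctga
Smad3: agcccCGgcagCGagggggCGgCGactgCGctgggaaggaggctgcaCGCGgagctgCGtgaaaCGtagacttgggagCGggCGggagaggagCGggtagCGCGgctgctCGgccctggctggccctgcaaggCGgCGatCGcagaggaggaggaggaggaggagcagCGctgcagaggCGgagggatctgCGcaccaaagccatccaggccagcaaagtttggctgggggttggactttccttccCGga
Smad6: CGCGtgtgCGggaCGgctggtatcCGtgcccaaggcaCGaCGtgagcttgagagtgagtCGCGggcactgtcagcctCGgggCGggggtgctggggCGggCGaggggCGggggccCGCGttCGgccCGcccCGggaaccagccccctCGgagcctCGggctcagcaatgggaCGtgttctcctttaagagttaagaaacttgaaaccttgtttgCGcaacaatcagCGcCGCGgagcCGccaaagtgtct
The 250 bases held 4 CpG at Pdgfra, 7 at Pcdh7 and 16 at Dusp6, against 22 at Smad3, 25 at Slit2 and 27 at Smad6. Wide H3K4me3 thus lay beside starts with few and with many CpG. The letters GATC, which MboI cuts, were absent from this window at Dusp6, Pdgfra and Smad6.

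Sequence is also shown for 2 domains without a coding TSS, because they belong to a group of 6 that differed from the other domains in what follows. On chromosome 17 (chr17:39848101-39848400) the 300 bases around the position with the most ends held 28 CpG and start within Rn18s-rs5, which RefSeq annotates as a pseudogene related to the RNA of the small ribosomal subunit. On chromosome 6 (chr6:47649501-47649800) they held 2 CpG and lie in Gm40371, a RefSeq gene. Both are written on the plus strand of GRCm38, with CpG in capitals.
chr17: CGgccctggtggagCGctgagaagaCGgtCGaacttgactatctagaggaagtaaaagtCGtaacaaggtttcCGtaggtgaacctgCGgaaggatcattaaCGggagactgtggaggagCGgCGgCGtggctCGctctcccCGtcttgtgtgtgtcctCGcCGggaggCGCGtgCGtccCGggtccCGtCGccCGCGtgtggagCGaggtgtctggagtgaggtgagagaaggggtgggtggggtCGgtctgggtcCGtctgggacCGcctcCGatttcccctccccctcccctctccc
chr6: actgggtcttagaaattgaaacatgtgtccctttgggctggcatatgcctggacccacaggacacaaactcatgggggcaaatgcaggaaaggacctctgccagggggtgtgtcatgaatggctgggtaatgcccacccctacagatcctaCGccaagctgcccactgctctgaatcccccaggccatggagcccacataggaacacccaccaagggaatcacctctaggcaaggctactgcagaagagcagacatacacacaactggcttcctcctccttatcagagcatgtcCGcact
Ribosomal RNA genes are present in many copies in the mouse genome.

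Width fell off steeply among the regions. There were 2231 regions of 2 kb, 441 of 3 kb, 76 of 4 kb, 14 of 5 kb, 4 of 6 kb and 2 of 7 kb, so that 76 regions lay just inside the limit and 441 just outside it. The 96 domains held 412 bins, of which 348 were enriched and 64 were joined gaps, and 38 domains had no gap. In the gap bins the pooled ends were a median 2.37-fold over background, against 6.44-fold in the enriched bins. HiChIP-seq ends lie near MboI sites, and the gap bins had a median of 1 such site per kb, with none in 18 of the 64. The enriched bins had a median of 3 per kb, with none in 5 of the 348. The part of the MboI sites in the gaps was not tested.

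The mean level of a domain was like that of a short region. The pooled level, in ends per kb of region per 1000000 autosomal ends, had a median of 4.79 at the domains (quartiles 3.36 and 6.47) and 5.01 at the regions of 1 kb (3.32 and 7.36). The bin with the most ends was a median 9.89-fold over background in the domains, and the regions of 1 kb were at 6.88-fold. A domain offers at least 4 bins from which this maximum is taken, and a short region offers 1. In all that follows, a level is in this unit and 4 levels in a row are given in the order Control, TGFB1, miR-9-LOF, TGFB1+miR-9-LOF.

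The longest domain with a coding gene spanned 7 kb at Pcdh7, which encodes a protocadherin of the cell surface (chr5:57716001-57723000). Its level was 9.35 in Control (95% Poisson interval 8.93 to 9.77), 6.01 in TGFB1 (5.61 to 6.42), 3.96 in miR-9-LOF (3.69 to 4.24) and 3.60 in TGFB1+miR-9-LOF (3.33 to 3.88). Control was the highest and TGFB1 the next, and the intervals of both libraries with the miR-9 probe overlapped each other and no other. Exons of coding genes, with their untranslated parts, made up 61.6% of this domain. A domain of 6 kb lay at Pcgf2, a Polycomb subunit, together with Psmb3, a proteasome subunit (chr11:97698001-97704000), with levels of 11.5, 8.53, 6.17 and 4.60. Another of 6 kb lay at Zfp608, a zinc finger gene, with levels of 4.71, 3.35, 2.08 and 1.68. Both had Control highest, TGFB1 next and the libraries with the miR-9 probe lowest, as had Pcdh7 and 93.9% of all 8016 regions. All 14 domains of 5 kb had a coding TSS.

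Of the 14 domains of 5 kb, 9 were among the 15 longest. Dusp6 and Dusp4 encode phosphatases that inactivate MAP kinases, and Spry2 encodes a feedback inhibitor of receptor tyrosine kinases. Dusp6 (chr10:99261001-99266000) had levels of 12.8 in Control, 9.36 in TGFB1, 5.15 in miR-9-LOF and 5.19 in TGFB1+miR-9-LOF. Dusp4 had 6.96, 4.80, 2.91 and 2.59, and Spry2 had 6.49, 4.71, 2.98 and 2.48. In each, Control was highest, TGFB1 was next and both libraries with the miR-9 probe were lowest, as in 93.9% of all regions.

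Slit2, a secreted guidance ligand (chr5:47982001-47987000), had levels of 9.64, 6.66, 4.03 and 3.37, and Nrp2, a co-receptor for semaphorins and VEGF (chr1:62703001-62708000), had 9.61, 6.45, 3.79 and 3.78. At Nrp2 the intervals of both libraries with the miR-9 probe overlapped, 3.48 to 4.12 and 3.46 to 4.13. At Slit2 they just missed each other, 3.71 to 4.37 and 3.07 to 3.70. Of the 3157 pooled ends at Slit2, 552 had their partner in the same domain and are not independent counts. The gap between its intervals therefore cannot be relied on.

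Amotl2, which encodes an angiomotin that binds YAP (chr9:102717001-102722000), had the highest Control level of the 5-kb domains, with 13.8, 10.3, 6.22 and 4.99. Anp32a, an acidic nuclear phosphoprotein, had 11.02, 7.62, 4.87 and 3.92, and the domain shared by Cldn6, Hcfc1r1, Thoc6 and Tnfrsf12a, the last of them the receptor for TWEAK, had 10.3, 6.97, 4.97 and 4.06. The levels of these 3 domains had the order Control, TGFB1, miR-9-LOF, TGFB1+miR-9-LOF. Among all regions, 93.9% likewise had Control over TGFB1 and TGFB1 over both libraries with the miR-9 probe. Other 5-kb domains lay at Meis1, at Gtpbp6 with Zfp605, at Lmo4, at C130026I21Rik and at Klf4.

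**Figure D1:**
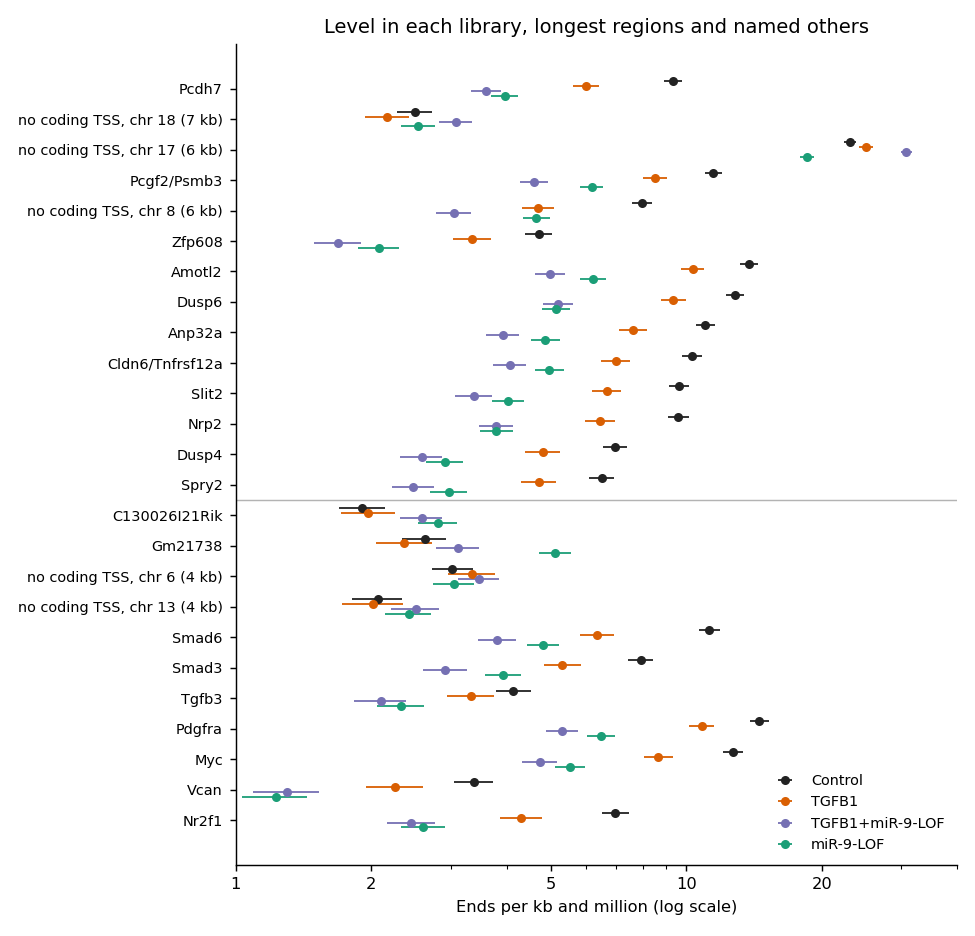
Level of named domains on a log axis in the 4 libraries, with exact 95% Poisson intervals for counting error. Above the grey line are 14 of the 15 longest domains and below it other named domains. At Pcdh7 the points run from 9.35 in Control to 3.60 in TGFB1+miR-9-LOF, and Control is highest and TGFB1 next at all plotted domains but 6.

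A coding TSS lay within 2 kb of 89 of the 96 domains (92.7%, exact 95% binomial interval 85.6 to 97.0) and of 4696 of the 5248 regions of 1 kb (89.5%, 88.6 to 90.3). More than 1 coding gene had a TSS there at 12 domains (12.5%) and at 10.7% of the regions of 1 kb. Exons of coding genes, with their untranslated parts, made up 24.4% of the bases of the domains. Introns made up 47.5% and sequence outside coding genes 28.1%. In the regions of 1 kb these were 23.8%, 50.5% and 25.7%. By these measures the domains sat at promoters to about the same degree as the short regions.

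The domains lay mostly downstream of the TSS. In 76 domains with a single coding gene and at most 20% of ends under mapping quality 30, the domain ran a median of 3.04 kb downstream and 1.26 kb upstream of the TSS nearest to its summit, and it reached farther downstream than upstream in 63 of the 76. In 3897 regions of 1 kb the medians were 0.718 kb downstream and 0.281 kb upstream, with 2846 reaching farther downstream.

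**Figure D2:**
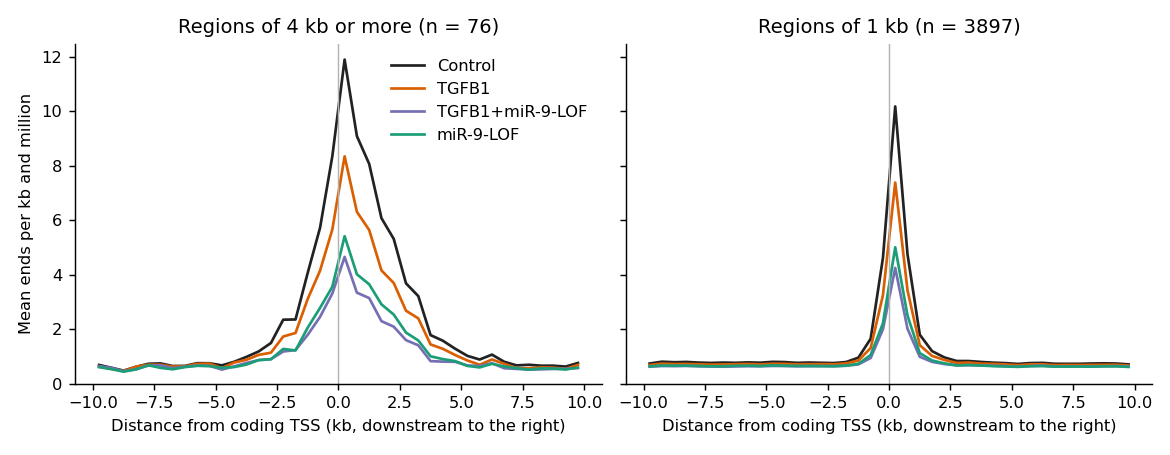
Mean level in windows of 500 bases around the coding TSS of 76 domains (left) and 3897 regions of 1 kb (right), 1 line per library, with downstream to the right. At the domains the Control line peaks at 11.9 just downstream of the TSS and is still 5.31 at 2.25 kb, whereas at the regions of 1 kb it peaks at 10.2 and is 0.968 there.

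Control was highest and TGFB1 next from 3.25 kb upstream to 4.25 kb downstream of the TSS of the domains. The miR-9-LOF level was over that of TGFB1+miR-9-LOF in each window from -1.25 to 4.75 kb, and in the window at -1.75 kb it was not, with 1.22 and 1.24. At -1.25 kb the mean levels were 4.08 in Control, 3.12 in TGFB1, 2.06 in miR-9-LOF and 1.80 in TGFB1+miR-9-LOF. In the window centred 0.25 kb downstream of the TSS the mean levels were 11.9, 8.34, 5.41 and 4.65. At 2.25 kb downstream they were 5.31, 3.70, 2.54 and 2.09. The same distance at the regions of 1 kb was near the background in every library, with 0.968, 0.875, 0.749 and 0.725.

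The domains did not hold more CpG per base than the short regions. The median was 49.6 CpG per kb in the domains and 53 in the regions of 1 kb, the ratio of observed to expected CpG was 0.679 and 0.676, and the GC content was 55.3% and 56.6%. All autosomal 1-kb bins had a mean of 8.50 CpG per kb and a GC content of 41.9%. In the bin with the most ends, the domains had a median of 60 CpG per kb. A motif of 4 runs of GGG separated by 1 to 7 bases of any kind, which can fold as a G-quadruplex and was searched on both strands, was in the top bin of 60 of the 96 domains (62.5%), in 49.4% of the regions of 1 kb and in 15.9% of all 1-kb bins. As above, the top bin of a domain is chosen among several. MboI sites were at a median of 3 per kb in both classes.

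The domains lay where coding genes were sparse, but this rested on the background used in the call. The median number of coding genes with a TSS within 100 kb was 1 for the domains (quartiles 1 and 3), which is often their own gene, 3 for the regions of 3 kb, and 4 for the regions of 2 kb and for those of 1 kb (2 and 7). The call itself used the mean of the surrounding 100 kb, which is higher beside many promoters. With the mean of the chromosome alone as the background, 756 regions reached 4 kb, and their median was 5 genes against 4 for the regions of 1 kb. Pcdh7, Slit2, Dusp6, Meis1, Klf4, Myc, Smad3 and Wnt5a had a count of 1, whereas the domain at Cldn6 and Tnfrsf12a had 14 and that at Pcdhgc3, one of a cluster of protocadherins, had 15.

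**Figure D3:**
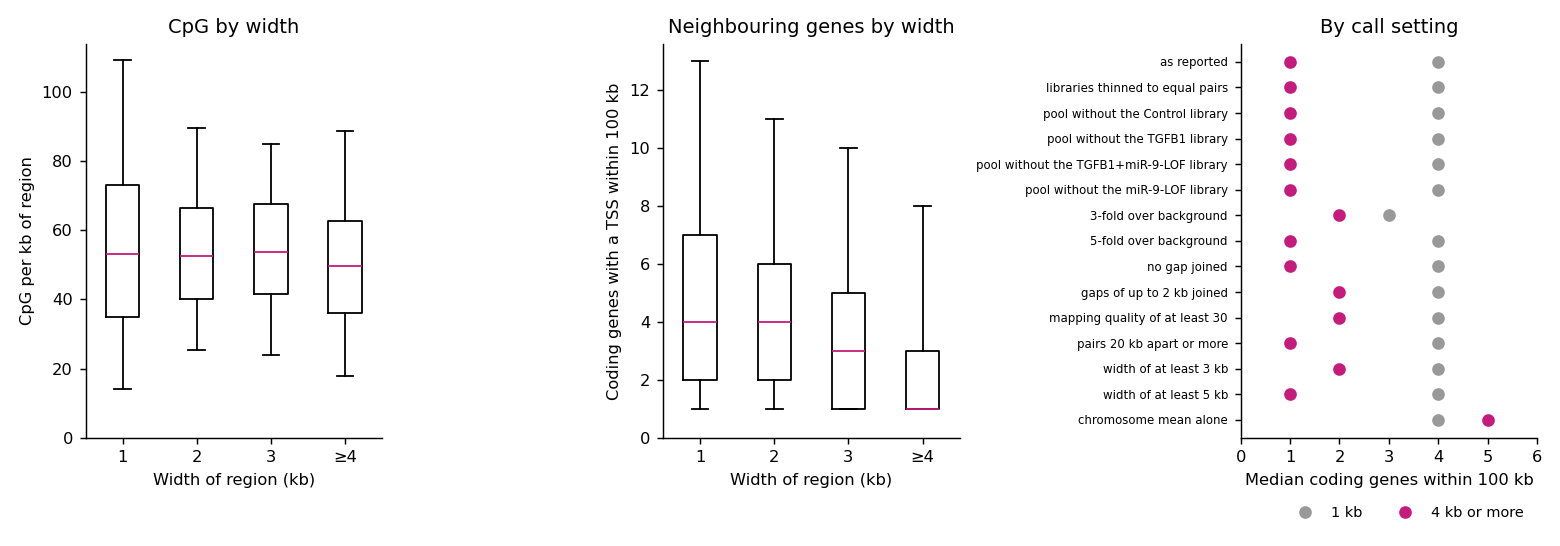
CpG per kb by width of region (left), coding genes with a TSS within 100 kb by width (middle), and the median number of those genes for regions of 1 kb and of 4 kb or more under each setting of the call (right). CpG per kb is alike across widths, with medians of 53 at 1 kb and 49.6 at 4 kb or more. The gene count at the broad regions is 1 as reported and 5 with the chromosome mean alone.

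Genes of several lists lay at broad domains. Over all 20807 coding genes of the autosomes, 104 (0.5%) had a TSS within 2 kb of a domain and 8282 (39.8%) within 2 kb of any enriched region. The lists were chosen with earlier results known, so their counts are a description. Of 48 mesenchyme transcription factors, 4 lay at a domain and 39 at any region. The 4 were Nr2f1, an orphan nuclear receptor, Runx2, a regulator of bone formation, Six4, a homeobox factor, and Tcf7l2, which acts in WNT signalling. Runx2 (chr17:44733001-44737000) had levels of 14.99, 10.6, 6.03 and 5.60, Tcf7l2 had 10.1, 7.74, 4.08 and 4.03 and Six4 had 6.66, 5.47, 3.07 and 2.97. In all 3 Control was highest, TGFB1 next and both libraries with the miR-9 probe lowest, as in 93.9% of all regions. Of 39 Hox genes, 0 lay at a domain and 6 at any region.

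Of 40 genes of TGFB signalling, 3 lay at a domain and 33 at any region. Smad3, which carries the signal of the TGFB receptor to the nucleus (chr9:63755001-63759000), had levels of 7.94, 5.31, 3.92 and 2.92. Smad6, an inhibitory SMAD (chr9:64018001-64022000), had 11.3, 6.35, 4.82 and 3.81. Tgfb3, a ligand of the family, had 4.13, 3.33, 2.33 and 2.10. The 3 had Control highest, TGFB1 next and both libraries with the miR-9 probe lowest, an order that 93.9% of all regions had. Among 6 genes that the study follows, with Prap1 as its negative control, 0 lay at a domain. The study set a lower limit for broad H3K4me3 domains, on peaks of another assay, than the 4 kb used here. Ep300 lay at a region of 3 kb, Hdac7 at one of 2 kb and Ncl at one of 1 kb, and Zdhhc5, Lzts2 and Prap1 at none.

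Of 33 immediate early and AP-1 genes, 4 lay at a domain and 30 at any region. They were Myc, Klf4, Klf6 and Hes1, all transcription factors. Myc (chr15:61984001-61988000) had levels of 12.7, 8.67, 5.52 and 4.73, Klf4 had 3.14, 2.05, 1.37 and 1.18, Klf6 had 6.01, 4.34, 2.78 and 1.95 and Hes1 had 4.47, 3.68, 2.13 and 2.10. Myc was thus the highest of the 4 in every library and Klf4 the lowest. Of 18 genes of YAP and TEAD, 3 lay at a domain and 14 at any region. Beside Amotl2 they were Ajuba, a LIM domain protein, with 7.0, 4.98, 4.198 and 3.02, and Ccn1, a secreted matricellular protein, with 8.10, 5.25, 3.61 and 3.15.

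Of 38 autosomal genes of the fibroblast matrix and surface, 3 lay at a domain and 23 at any region. Pdgfra (chr5:75153001-75157000) had levels of 14.5, 10.8, 6.47 and 5.31, and Thbs1, a matricellular protein (chr2:118111001-118115000), had 8.09, 4.88, 3.25 and 3.16. Vcan, the proteoglycan versican (chr13:89739001-89743000), had 3.39, 2.26, 1.23 and 1.30, and its miR-9-LOF level was the lowest of all domains. Of 30 tumour suppressors, 3 lay at a domain and 26 at any region. They included the cadherin Fat1, with 10.2, 7.03, 3.94 and 3.58, and Ing1, a reader of H3K4me3, with 12.9, 8.66, 6.03 and 4.60. Of 20 autosomal genes of the H3K4 methylation machinery, 1 lay at a domain, which was Ing1 again, and 17 at any region. Of 74 genes of cytosolic ribosomal proteins, which are active in every cell, 1 lay at a domain (Rpl7, in a domain shared with Rdh10), 3 at a region of 3 kb, 19 at 2 kb and 34 at 1 kb. Over all coding genes the same counts were 104, 521, 2514 and 5143, so that the spread over widths was like that of all genes with a region.

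Further domains outside these lists are named here after their values were seen. They included the WNT receptors Fzd1 and Fzd2 and the ligand Wnt5a, the guidance genes Nrp1, Sema5a and Efna5, the chromatin remodelling subunits Arid1b, Arid2 and Smarca2, the transcription factors Foxo3, Maf, Rbpj, Irx5, Klf7 and Zfhx4, the BMP inhibitor Grem1, the kinase Jak2, the Ras pathway inhibitor Spred1, the cell cycle inhibitor Cdkn2c, the collagen chaperone Serpinh1 and the matrix protease Adamts5. Foxo3 (chr10:42274001-42278000) had levels of 15.4, 10.8, 6.93 and 5.88 and Fzd2 had 13.2, 9.52, 7.07 and 5.09. Among the 90 domains outside the group of 6, the highest Control level was 16.6, at B4gat1 with Brms1, and the lowest was 3.10, at Wnt5a.

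The number of broad regions called in single libraries had the order of the share of ends in enriched regions. With all libraries thinned to the same number of pairs, 206 regions of 4 kb or more were called in Control, 123 in TGFB1, 58 in miR-9-LOF and 33 in TGFB1+miR-9-LOF. They made up 2.20%, 1.46%, 0.81% and 0.53% of the 9374, 8426, 7148 and 6275 regions called in those libraries. The regions of 1 kb numbered 5439, 5468, 5201 and 4982. When the libraries were instead thinned to equal ends in regions, the counts of 4 kb or more were 196, 129, 57 and 32. These were 2.04%, 1.51%, 0.80% and 0.52% of the regions called. Of the 96 pooled domains, 96 overlapped a region of 4 kb or more in Control, 85 in TGFB1, 50 in miR-9-LOF and 31 in TGFB1+miR-9-LOF, where 4 domains overlapped no region. The domains were called on a pool to which Control gave more ends in regions than any other library. Without Control in the pool, 60 regions reached 4 kb, so the overlap with Control was in part set by the call. A narrower domain and a less enriched library cannot be told apart in these counts, and the overlap is not given for shorter regions.

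In single libraries, 26 domains spanned 4 kb or more in all 4. They held 4 domains of a group of 6 described further on, those on chromosomes 6, 13, 17 and 18, and 22 of the other 90. Of the 96 domains, 42 reached 4 kb in neither library with the miR-9 probe. Such counts are not given for shorter regions, so these counts do not set the domains apart from them. Pcdh7 was called at 7 kb and Spry2 at 5 kb in every library, and Pdgfra, Maf, Arid2, Ing1, Ajuba and Six4 at 4 kb. In contrast, Zfp608 was called at 6 kb in Control and in TGFB1, at 2 kb in miR-9-LOF and at 1 kb in TGFB1+miR-9-LOF. Meis1 was at 5 kb in Control and TGFB1 and at 1 kb in both libraries with the miR-9 probe, and Vcan was at 4 kb and 1 kb in the same way. Thbs1 was at 7 kb in Control and TGFB1 and at 3 kb in the others.

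**Figure D4:**
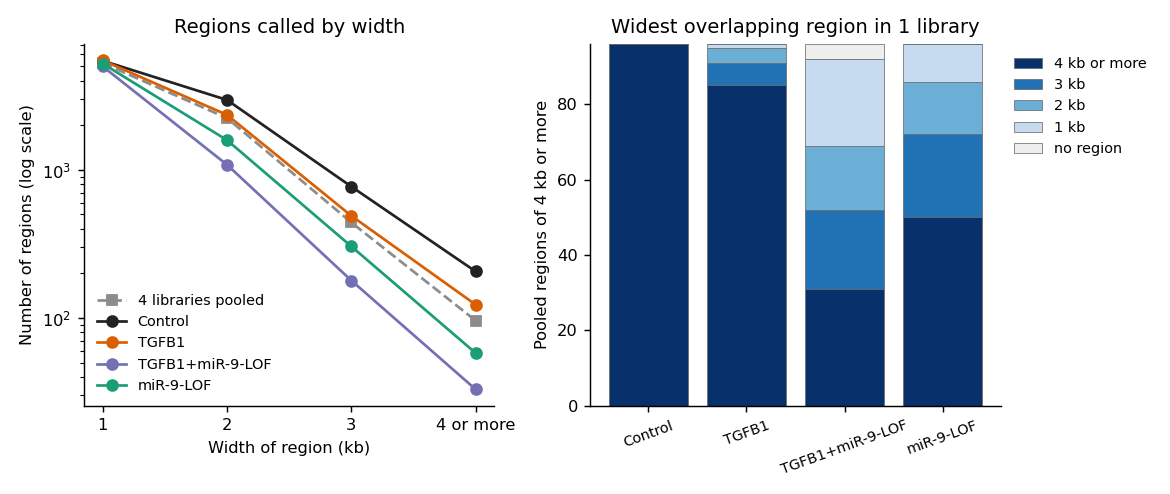
Number of regions by width on a log axis, pooled and in each library at equal pairs (left), and the widest region that overlapped each of the 96 pooled domains in each library (right, stacked bars from 0). Of the 96 domains, 31 are at 4 kb or more in TGFB1+miR-9-LOF and 96 in Control, which gave the most ends in regions to the pool used for the call.

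The levels of the domains differed between libraries about as those of all regions did, with the largest offset for miR-9-LOF over Control. The median log2 ratio of the 96 domains was -0.50 for TGFB1 over Control, -1.10 for miR-9-LOF over Control, -0.22 for TGFB1+miR-9-LOF over miR-9-LOF and finally -0.79 for TGFB1+miR-9-LOF over TGFB1. Over all 8016 regions the medians were -0.48, -1.02, -0.22 and -0.77. Relative to all regions the median domain was thus at -0.02, -0.08, 0.0035 and -0.02 on the log2 scale. The level was highest in Control, next in TGFB1 and lower in both libraries with the miR-9 probe in 90 of the 96 domains, against 93.9% of all regions and 91.5% of the regions of 1 kb. Each comparison shares a library with another, and none has a test.

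A region was counted as past the fold where its log2 ratio differed from that of the median region by at least 0.32. For TGFB1 over Control, 5 of the 96 domains were past it as higher (5.21%) and 1 as lower (1.04%), against 6.32% and 5.11% of all regions. For miR-9-LOF over Control, 6 were higher and 6 lower (6.25% each), against 11.7% and 8.26% of all regions. For TGFB1+miR-9-LOF over TGFB1, 6 were higher (6.25%) and 4 lower (4.17%), against 10.4% and 5.5%. For TGFB1+miR-9-LOF over miR-9-LOF, 4 were higher (4.17%) and 3 lower (3.12%), against 10.5% and 8.87%. Shorter regions hold fewer ends, and the part of counting error in these shares was not tested.

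Smad6 was the domain past the fold as lower for TGFB1 over Control, at -0.35 relative to the median region on the log2 scale (interval -0.49 to -0.20). The next lowest were the domain at chr8:123427001-123433000 at -0.29 (-0.43 to -0.15), whose partners stand apart as given below, Thbs1 at -0.25 (-0.42 to -0.08), Efna5, an ephrin, at -0.24 (-0.40 to -0.09) and Fndc3b at -0.22 (-0.42 to -0.02). Smad3 was at -0.10 (-0.27 to 0.07) and Tgfb3 at 0.17 (-0.05 to 0.38), so that the intervals of these 2 TGFB signalling genes held 0. That of Smad6 did not, but Smad6 is named here as the lowest of the 96 domains, and the difference between the genes was not tested. With TGFB1 in cells with the miR-9 probe, Smad6 was at -0.11 (-0.30 to 0.07), and the difference between both ratios was not tested.

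For miR-9-LOF over Control the lowest values relative to the median region were at Vcan, -0.44 (-0.73 to -0.17), Nr2f1, -0.40 (-0.59 to -0.21), Meis1, a homeobox factor, -0.39 (-0.58 to -0.21), Fat1, -0.36 (-0.52 to -0.20), and Smarca2, an ATPase of the BAF remodelling complex, -0.33 (-0.55 to -0.12). Nrp2 was also past the fold at -0.32 (-0.47 to -0.18). Nr2f1 (chr13:78197001-78201000) had levels of 6.96, 4.30, 2.61 and 2.45, and Meis1 (chr11:19014001-19019000) had 5.98, 4.73, 2.25 and 2.37. In both the Control level was over that of TGFB1 and the levels with the miR-9 probe were the lowest, as in 93.9% of all regions. For TGFB1+miR-9-LOF over TGFB1 the 4 lower domains were Grem1 at -0.40, Klf6 at -0.39, the domain of Rpl7 with Rdh10 at -0.36 and Pcdhgc3 at -0.36. For TGFB1+miR-9-LOF over miR-9-LOF, Gdnf, a neurotrophic factor, was past the fold as higher at 0.33 (0.11 to 0.54), and Gm21738, which belongs to the group of 6 described next, at -0.49 (-0.69 to -0.30), the domain on chromosome 8 at -0.38 (-0.55 to -0.22) and Ier5l at -0.37 (-0.63 to -0.12) were lower.

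**Figure D5:**
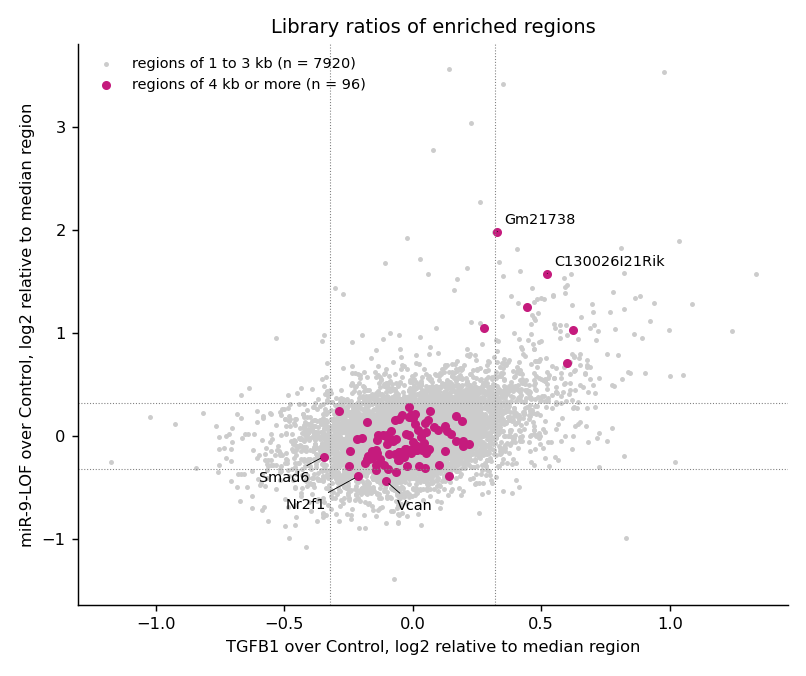
Log2 ratio of each region relative to the median of all 8016 regions, TGFB1 over Control on the horizontal and miR-9-LOF over Control on the vertical axis. Dotted lines mark 0.32 on either side of 0. The 96 domains (magenta) lie mostly near 0 on both axes, and 6 of them stand apart at 0.70 to 1.98 on the vertical axis.

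The 6 domains that were past the fold as higher for miR-9-LOF over Control did not have the order of libraries of the other 90. They were higher relative to the median region, and in 1 of the 6, on chromosome 17, the miR-9-LOF level itself was under that of Control. They lay at chr17:39843001-39849000 (6 kb), chr18:3005001-3012000 (7 kb), chr6:47646001-47650000 and chr13:119613001-119617000 and at C130026I21Rik (chr1:85272001-85277000) and Gm21738 (chr14:19416001-19420000). A coding TSS lay at 2 of the 6 and at 87 of the other 90. The share of ends under mapping quality 30 was 4.75% to 62.9% (median 16.8%) in the 6 and 1.14% to 13.8% (median 2.51%) in the other 90, and repeats made up a median of 25% and 10.6% of their bases. Of the ends in the 6, 75.6% had their partner on another chromosome, against 15.6% in the other 90, with 97.6% at Gm21738, 92.0% on chromosome 18, 83.2% on chromosome 17 and 17.9% to 30.1% at the other 3. The part of mapping in these domains was not tested.

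The chromosome 17 domain had levels of 23.1, 25.1, 18.5 and 30.8, and in all 4 libraries it was the highest of all domains. The chromosome 6 domain had 3.03, 3.34, 3.05 and 3.46, with intervals that all overlap. Gm21738 had 2.63, 2.37, 5.12 and 3.11, so that miR-9-LOF was the highest there. C130026I21Rik had 1.91, 1.97, 2.81 and 2.59, the chromosome 18 domain had 2.50, 2.17, 2.54 and 3.08 and the chromosome 13 domain had 2.07, 2.02, 2.42 and 2.51. The 6 were defined by miR-9-LOF over Control, so that no other domain is past the fold as higher there. All 5 domains past it as higher for TGFB1 over Control and all 6 for TGFB1+miR-9-LOF over TGFB1 were also among them, as were 3 of the 4 for TGFB1+miR-9-LOF over miR-9-LOF, where Gm21738 was past it as lower. Higher is again relative to the median region. Of the 5 for TGFB1 over Control, Gm21738 and the chromosome 13 domain had a TGFB1 level under that of Control.

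Besides 4 of these 6, 3 domains had no coding TSS within 2 kb. That at chr8:123427001-123433000 lay within Def8 and Gm20388, 9.99 kb from the nearest coding TSS, and had levels of 7.99, 4.70, 4.65 and 3.05. Its TGFB1 and miR-9-LOF intervals overlapped, 4.32 to 5.09 and 4.34 to 4.98. Its pairs stood apart from those of the other domains outside the group of 6. Of its 3312 pooled ends, 0 had a partner 20 kb to 2 Mb away and 65.3% had one on another chromosome, against 25.4% to 69.0% and 7.32% to 25.8% over the other 89. The share on another chromosome was 62.8% in Control, 64.3% in TGFB1, 66.7% in miR-9-LOF and 71.2% in TGFB1+miR-9-LOF. The part of this in its ratios was not tested. That at chr13:107888001-107892000 lay at Zswim6, for which RefSeq has an mRNA start there and the GENCODE set used for the count has no coding one, and it held 107 CpG per kb. Its levels were 8.36, 5.56, 3.39 and 3.23. That at chr15:85669001-85673000 lay outside coding genes, 62.6 kb from the TSS of Ppara, with 72 CpG per kb and levels of 10.98, 7.01, 4.61 and 3.89.

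The call counted both ends of every pair and did not use which ends were paired, so that the shares of partners in regions are not independent of it. The partner of an end was in the same domain for 14.5% of the ends in domains and in the same region for 3.18% of the ends in regions of 1 kb, a share that grows with width. Partners 20 kb to 2 Mb away made up 40.2% and 41.4% of the ends. Of those far partners, 3.21% lay in another enriched region for the domains (95% binomial interval 3.10 to 3.32) and 6.32% for the regions of 1 kb (6.28 to 6.36). The share expected from the distance and the coverage of the bins was 5.31% and 10.4%. The observed share was 0.604 and 0.607 of it, so that the domains and the short regions were alike once the coverage around them was counted. By library this ratio was 0.495, 0.709, 0.697 and 0.848 at the domains and 0.522, 0.683, 0.665 and 0.810 at the regions of 1 kb. At the domains the observed share was 3.34%, 3.66%, 2.81% and 2.77%, and the expected share was 6.75%, 5.15%, 4.02% and 3.27%. At the regions of 1 kb these were 6.91%, 6.96%, 5.24% and 5.28%, and 13.2%, 10.2%, 7.88% and 6.52%. In both classes the library with the highest ratio had the lowest expected share, so a higher ratio is not a higher share of such contacts.

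Pairs of ends between domains within 2 Mb of each other were few. There were 9 such pairs of domains, with 0 to 4 pairs of ends each in the pool. Smad3 and Smad6 lay 259 kb apart and had 4 pairs of ends, 2 of them in Control, against 35.01 expected, a ratio of 0.114 (95% Poisson interval 0.0311 to 0.293). Nrp2 and the domain of Eef1b2 with Ndufs1, 467 kb apart, had 1 pair against 8.51 expected (ratio 0.118, 0.00297 to 0.655). At the other 7 the expected number was between 1.37 and 5.28. All 9 pairs of domains had fewer pairs of ends than expected. The intervals of Smad3 with Smad6 and of Nrp2 with Eef1b2 and Ndufs1 lay under 1, and those of the other 7 held it. These 2 had the most expected pairs of ends and the narrowest intervals, so this does not set them apart from the other 7. The expected share of far partners given above was scaled to the far ends of each region. The expected number for a pair of domains was not, so the ratios of both kinds are not comparable.

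Among the most frequent far partner of each domain, the following are named after their values were seen. Each partner was chosen by the count that its ratio uses, so the ratio can lean high. The intervals leave this choice out. Meis1 had 77 pairs of ends with a region of 3 kb without a coding TSS, 136 kb away, against 25.5 expected (ratio 3.02, 2.38 to 3.77), of which 34 were in Control, 24 in TGFB1, 9 in miR-9-LOF and 10 in TGFB1+miR-9-LOF. Gtpbp6 with Zfp605 had 82 pairs with Chfr, 24 kb away, against 50.1 expected (1.64, 1.30 to 2.03). Myc had 61 pairs with a region of 3 kb at 49 kb, against 224 expected (0.272, 0.208 to 0.349). Meis1 was thus over the expected number and Myc was under it. In the group of 6, the chromosome 13 domain had 32 pairs with a region at Tmem267 against 3.35 expected, and the chromosome 6 domain had 31 pairs with a region at Cul1 against 4.96 expected. C130026I21Rik had 18 pairs with a region of 3 kb without a coding TSS, 314 kb away, against 0.895 expected. Of these, 1 was in Control, 9 in TGFB1, 6 in miR-9-LOF and 2 in TGFB1+miR-9-LOF. The ratio was 20.1 (11.9 to 31.8) at C130026I21Rik, 9.56 (6.54 to 13.5) at the chromosome 13 domain and 6.25 (4.25 to 8.87) at the chromosome 6 domain. The intervals of C130026I21Rik and the chromosome 13 domain overlapped. The other 3 of the 6 had 0 pairs with another region 20 kb to 2 Mb away.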

How the data were processed

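HiChIP-seq of H3K4me3 was analysed in 4 libraries of MLg cells, 1 per condition. The authors aligned paired reads to mm10 with HiC-Pro, removed duplicates and kept the valid pairs of MboI fragments. The deposited files hold positions, 1 line per pair, and these were counted here. The authors also deposited a mapping quality score for each end, which was used as a filter and beside results. Ends were counted in 1-kb bins with Python 3.11.15, numpy 2.4.6 and scipy 1.17.1, and plots were drawn with matplotlib 3.10.9. Coding TSSs were those of protein-coding transcripts in GENCODE M21 (basic set), and sequences came from RefSeq GRCm38.p6. The domains, lists and named genes were chosen with earlier results of these data known. The genes named are those of the 15 longest domains, the 5 highest and 5 lowest ratios of either single treatment to Control, listed genes at a domain, genes the study follows, and domains without a coding TSS. Other genes were named after their values were seen, among them all domains past the fold in any comparison. Some genes that this rule names are not reported here. Expected contacts were the product of far coverage and a factor for distance that makes expected and observed pairs equal at each distance. For the expected share of partners in other regions, this product was scaled to the far ends of each region. Conditions were compared without a test, since each has 1 library. Intervals are exact at 95% for independent counts and cover counting error only. The call was tested on simulated bins. Alternatives to the pooling, fold, gap, width, background and mapping quality were tried. Chromosomes X and Y were left out of the calls.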

Additional observations from a re-analysis of the deposited data

Results flagged for a closer look

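The X chromosome was left out of the call, and the same rule there gave 2 regions of 4 kb or more, at Stag2, a subunit of cohesin, with 1190 pooled ends over 4 kb, and at Mid1, a ubiquitin ligase, with 1138 pooled ends over 5 kb.

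The domain at Gm21738 had ratios of opposite sign with TGFB1 only relative to the median region. Its level itself was lower with TGFB1 both times, with log2 ratios of -0.15 over Control and -0.72 over miR-9-LOF. Relative to the median region its log2 ratio was 0.33 for TGFB1 over Control and -0.49 for TGFB1+miR-9-LOF over miR-9-LOF, with 1 library for each condition, and the difference was not tested. Of its ends, 62.9% were under mapping quality 30, 76.9% of its bases were repeats, and 97.6% of its ends had their partner on another chromosome.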

How the results depend on the processing

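The number of broad domains depended on the call. In place of 96 there were 60 without the Control library in the pool, 291 at 3-fold and 46 at 5-fold over background, 38 with no gap joined, 160 with gaps of up to 2 kb joined, 537 with a width of at least 3 kb, 20 with at least 5 kb, and 756 with the chromosome mean alone. It stayed within 1.5 times of 96 with libraries thinned to equal pairs (96), without TGFB1 (92), TGFB1+miR-9-LOF (123) or miR-9-LOF (110), at mapping quality of at least 30 (98) and with pairs at least 20 kb apart or on 2 chromosomes (82). The number of 1-kb regions stayed within 1.5 times under every alternative run. At 3-fold, single libraries gave 523 regions of 4 kb or more in Control, 350 in TGFB1, 192 in miR-9-LOF and 146 in TGFB1+miR-9-LOF. These were 3.52%, 2.31%, 1.43% and 1.06% of the regions called in those libraries.

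With a TSS within 1 kb or 5 kb the share of 1-kb regions with a coding TSS was 88.4% or 90.7%. Scaled to the ends in regions, the median log2 ratio of the domains was -0.0238 for TGFB1 over Control, -0.0771 for miR-9-LOF over Control and -0.0150 in TGFB1+miR-9-LOF over TGFB1. For TGFB1+miR-9-LOF over miR-9-LOF it was 0.00287, with the other sign. This scaling shifts all regions of a comparison by 1 constant, so that all 4 medians lie near 0 by construction. With ends above the surrounding background the 4 medians, in this order, were -0.55, -1.22, -0.93 and -0.28. For TGFB1 over Control it was -0.47 with 43 domains called on the other libraries. In the top bin the domains had a CpG ratio of 0.718, 60 CpG per kb and a GC content of 59.3%, and among regions with a coding TSS those of 1 kb had 0.691, 55 and 57.2%. The causes were not tested. Leaving out the 6 domains that stand apart, these and the chromosome 8 domain with no partner 20 kb to 2 Mb away, or those of low mapping quality, was chosen after seeing the data and kept each median within the interval of the median reported. No paired analysis was possible because the conditions compared have 1 library each and so share fewer than 2 replicate numbers.

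With 1 library per condition, differences between conditions cannot be told from differences between libraries. The libraries differed in the share of ends in regions, and domains were called from all of them together with Control contributing most ends in regions.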
